A study of Homo sapiens with 12 samples.

Results

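The Schlafen genes are a small family on human chromosome 17, and 5 of its members were followed here through RNA-seq of 2 diffuse large B-cell lymphoma (DLBCL) cell lines treated with antibodies to CD20. They are SLFN5, SLFN11, SLFN12, SLFN12L and SLFN13, which are 5 of the 58884 genes in the count table and were found by the Ensembl identifiers that carry these symbols. SLFN5 was chosen from these data, because it had the smallest p-value of all decreased genes in TMD8 with either antibody, so its TMD8 differences from isotype are descriptions without a test. The other members were chosen because they belong to the same family.

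The cell lines were U2932 and TMD8, both labelled DLBCL and wild type. Cultures of each line received 20 µg/mL of rituximab (R), ofatumumab (OF) or a human IgG1 isotype antibody for 4 h, so the control cells also carried an antibody. R and OF bind CD20, the B cell surface protein encoded by MS4A1. Each line was divided into 2 cultures, grown apart for a week, to give 2 libraries for each of the 6 conditions and 12 in all. Both libraries of a condition therefore come from the same cell line, and the p-values measure the spread between sister cultures of that line.

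Schlafen proteins share a core domain that is found in few other proteins, and several of the genes are known to be induced by interferons. SLFN11 is recruited to stalled replication forks through the single-strand binding protein RPA and sensitizes cells to DNA-damaging drugs. SLFN13 and SLFN11 cleave transfer RNA, and SLFN12 becomes an active ribonuclease when drugs join it to the phosphodiesterase PDE3A. SLFN5 is an interferon-inducible nuclear protein that has been described as a regulator of transcription. In B cells and their tumours SLFN11 is the member studied most, as a marker of drug response.

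The members lie side by side. On GRCh38 (GENCODE 29), SLFN5 (ENSG00000166750) runs on the plus strand at chr17:35243036-35273655, and the other members are on the minus strand, SLFN11 (ENSG00000172716) at chr17:35350305-35373701, SLFN12 (ENSG00000172123) at chr17:35411060-35433283, SLFN13 (ENSG00000154760) at chr17:35435096-35448837 and SLFN12L (ENSG00000205045) at chr17:35464249-35537861. The cluster with SLFN14 spans 315 kb. The longest annotated proteins have 891 residues in SLFN5, 901 in SLFN11, 897 in SLFN13, 578 in SLFN12 and 617 in SLFN12L, so SLFN12 and SLFN12L are the short forms. The coding sequences fall into 2 close pairs. SLFN11 and SLFN13 were identical at 87.2% of aligned bases and SLFN12 and SLFN12L at 87.2%, whereas SLFN5 was identical to the others at 68.0% to 70.5%.

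How far reads could be shared between members is shown by the longest stretches in which their coding sequences are the same. The first line is the longest stretch that SLFN5 shares with any member, 41 bases of SLFN5 exon 5 (chr17:35265163-35265203, plus strand) and SLFN11 exon 5 (chr17:35353014-35353054, minus strand). The next is the longest of the SLFN12 pair, 79 bases of SLFN12 exon 6 (chr17:35411562-35411640, minus strand) and SLFN12L exon 5 (chr17:35475120-35475198, minus strand). The last gives the first 150 of the 516 bases that SLFN11 exon 4 (chr17:35353671-35353820, minus strand) and SLFN13 exon 5 (chr17:35441898-35442047, minus strand) have in common. Exons are numbered in the transcript with the longest coding sequence.
SLFN5 and SLFN11: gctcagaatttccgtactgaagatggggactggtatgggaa
SLFN12 and SLFN12L: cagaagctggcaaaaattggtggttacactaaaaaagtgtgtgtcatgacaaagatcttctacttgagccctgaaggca
SLFN11 and SLFN13: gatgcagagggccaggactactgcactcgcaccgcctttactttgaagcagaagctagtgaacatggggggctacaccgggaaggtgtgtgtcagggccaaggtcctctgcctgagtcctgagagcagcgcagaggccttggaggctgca
Of the 50-base words in SLFN5 transcripts, 0.196% also occurred in transcripts of other genes and 0 of them in another member. The shares were 9.69% for SLFN11, all of it with SLFN13, 7.03% for SLFN13, 1.32% for SLFN12 and 8.46% for SLFN12L. Counts of SLFN5 were thus nearly free of shared sequence, and those of SLFN11 and SLFN13 are uncertain in the part they have in common, since the handling of reads with several matches is not given in the sources used here.

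RefSeq sequences of the 250 bases upstream of the start were on hand for 3 members (GRCh38.p14), and those of SLFN11 (chr17:35373622-35373871, minus strand) and SLFN12L (chr17:35537679-35537928, minus strand) are shown because they hold matches to the sites of interferon signalling. Capitals mark matches on either strand to TTCNNNGAA, the palindrome bound by STAT factors, or to the core of the interferon-stimulated response element, which is GAAA, any 2 bases and GAAA again.
SLFN11: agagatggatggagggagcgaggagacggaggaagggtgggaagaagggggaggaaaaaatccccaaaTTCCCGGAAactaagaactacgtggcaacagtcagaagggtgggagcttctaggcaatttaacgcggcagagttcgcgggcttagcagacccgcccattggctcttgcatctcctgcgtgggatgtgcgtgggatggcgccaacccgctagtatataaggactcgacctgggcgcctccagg
SLFN12L: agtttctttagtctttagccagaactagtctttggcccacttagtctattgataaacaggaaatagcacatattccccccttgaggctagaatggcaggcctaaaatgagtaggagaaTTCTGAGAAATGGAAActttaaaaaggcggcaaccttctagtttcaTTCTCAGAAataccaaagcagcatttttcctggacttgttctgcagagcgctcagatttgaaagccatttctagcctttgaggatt
SLFN11 had a STAT match 182 to 174 bases upstream, and an ETS core (CCGGAA) lay inside it. SLFN12L had STAT matches at 132 to 124 and at 86 to 78 bases, and the former overlapped a response element core at 126 to 117 bases. SLFN12 held none of these but 2 ETS cores and a match to the AP-1 site TGANTCA. These positions count from the RefSeq starts, which lie inside the GENCODE spans given above. The SLFN12L matches and the SLFN12 ETS cores fall within those spans. Among 35116 promoters of this length, 6.57% held a STAT match, 3.02% a response element core, 14.5% an ETS core and 6.57% an AP-1 match. A match of letters does not show that a factor binds.

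Depth was 15440226 to 27110612 counts per library. B cell genes were present in both lines, with MS4A1 at 852 to 2352 CPM (counts scaled to a common library size) and PAX5 at 204 to 726 CPM, while CD3D, CD3E, LYZ and CSF1R, which mark T cells and macrophages, stayed under 0.4 CPM. CD14, another macrophage gene, was at up to 0.962 CPM in U2932 and 0.326 CPM in TMD8, and COL1A1, a fibroblast gene, at 1.11 to 5.13 CPM in TMD8 and up to 0.513 CPM in U2932. EPCAM, an epithelial gene, was at 29.03 to 37.1 CPM and CD247 at 7.57 to 11.4 CPM in all U2932 libraries. In TMD8, replicate 2 of OF and replicate 2 of isotype stood apart, with 6.57% to 7.22% of counts on ribosomal protein genes against 10.1% to 10.8% in the other 4 libraries. Some results are given with and without these 2 libraries, and the differences between the lines only with them. Without them TMD8 keeps 1 OF and 1 isotype library, so the spread in that fit comes from the 2 R libraries alone and is assumed to hold for the others. In U2932 this share was 4.51% to 4.82% with isotype and 6.10% to 6.63% with R or OF, and its part in the U2932 results was not tested.

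All CPM were normalized by the trimmed mean of M values (TMM) over the 12 libraries, and levels of different genes are compared per length, as RPKM, which is CPM per kilobase of merged exons. In bulk RNA, fewer cells with a transcript and less of it per cell cannot be told apart. Averaged over the 6 libraries of a line, the order in TMD8 was SLFN11 (13.2 RPKM), SLFN5 (4.02), SLFN13 (0.605), SLFN12 (0.451) and SLFN12L (0.0897). In U2932 the order was SLFN11 (9.28 RPKM), SLFN13 (7.80), SLFN5 (0.785), SLFN12 (0.658) and SLFN12L (0.00995). The ranges of SLFN13 and SLFN12 overlapped in TMD8 (0.480 to 0.778 and 0.270 to 0.567 RPKM), as did those of SLFN5 and SLFN12 in U2932 (0.612 to 0.973 and 0.498 to 0.959) and those of SLFN11 and SLFN13 there (7.86 to 10.2 and 7.26 to 8.70). These ranges pool the antibodies, so their overlap does not show that the neighbours are alike. Within U2932, SLFN13 exceeded SLFN11 only in a single isotype library (7.93 and 7.86 RPKM). SLFN12 exceeded SLFN5 there only in a single R library (0.676 and 0.674). Within TMD8, SLFN12 exceeded SLFN13 only in a single R library (0.567 and 0.531). Every other library kept the order of the means, and whether these neighbours differ was not tested.

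**Figure D1:**
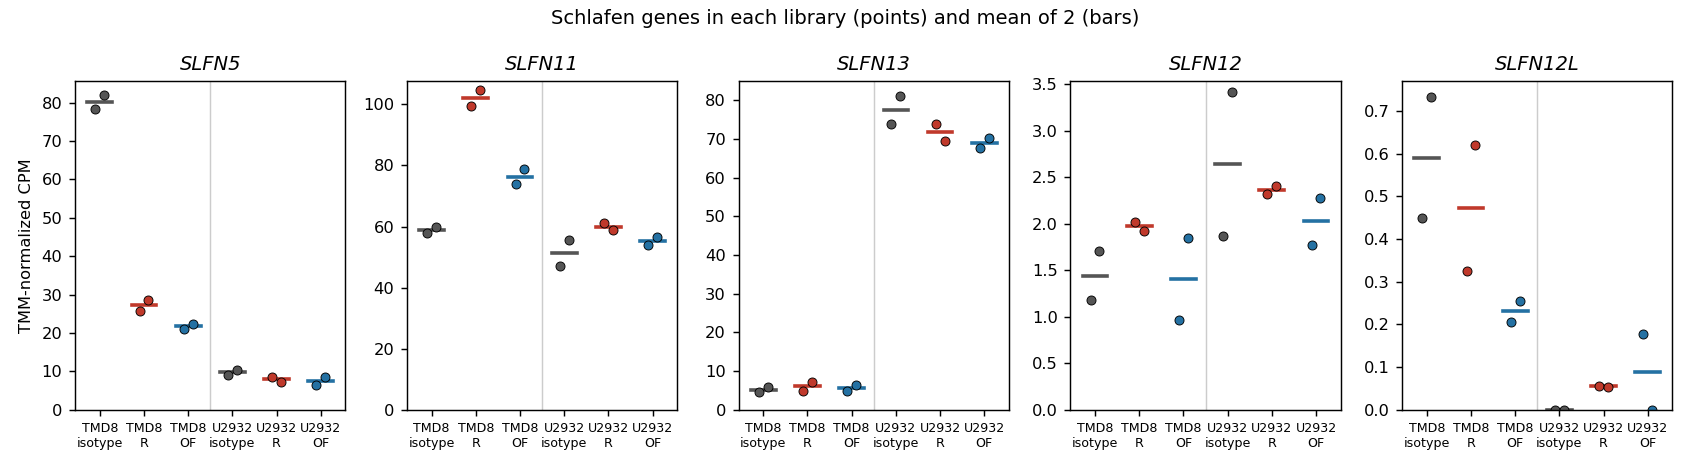
TMM-normalized CPM of the 5 Schlafen genes in each of the 12 libraries, with 1 panel per gene, its own axis from 0, and columns for TMD8 and U2932 with isotype, R and OF. Points are libraries and bars the mean of 2. SLFN5 fell from 78.4 and 81.9 CPM with isotype to between 21.0 and 28.7 CPM with either antibody in TMD8, and SLFN13 was at 67.7 CPM or above in every U2932 library and at 7.26 CPM or below in every TMD8 library.

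SLFN5 was highest in TMD8 cells given the isotype antibody. There the libraries had 1399 and 2344 reads, or 78.4 and 81.9 CPM (mean 80.1 ± 2.46, SD, n = 2). With R they had 396 and 462 reads, or 25.8 and 28.7 CPM (27.2 ± 2.04), and with OF 306 and 352 reads, or 21.0 and 22.4 CPM (21.7 ± 1.03). Every treated library was below every isotype library, and both OF libraries were below both R libraries. How many of all genes separate in this way was not counted, so nothing is read from such separations here or below. Relative to the isotype library with the same replicate number, SLFN5 was at 32.9% and 35.0% with R and at 26.8% and 27.4% with OF.

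The fitted change in TMD8 was a 2.98-fold decrease with R (log2 fold change −1.57, SE 0.15) and a 3.72-fold decrease with OF (−1.89, SE 0.15). Both comparisons use the same isotype libraries. Without the 2 libraries that stood apart the log2 changes were −1.56 and −1.94. By p-value SLFN5 ranked 1st of 7441 genes that were lower with R and 1st of 7205 that were lower with OF. By size it was only 113th and 43rd. The gene just after it by p-value was ZBTB43, a zinc finger gene, at −1.55 with R and −1.75 with OF. A gene was called where it passed an adjusted p of 0.10 and a 1.5-fold limit on its change, by edgeR's quasi-likelihood test with Benjamini-Hochberg adjustment. Of all genes tested in TMD8, 0.647% were called with R and 0.815% with OF, and SLFN5 was the 1 member of 4 tested that was called with each. Since SLFN5 was chosen from these comparisons, nothing is read from that count. With the replicate number as a block, 1565 genes were called with R and 1387 with OF, against 92 and 116 without it.

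In U2932, SLFN5 was lower from the start and was not called with either antibody. The isotype libraries had 206 and 238 reads (9.17 and 10.4 CPM), the R libraries 152 and 135 (8.60 and 7.22 CPM) and the OF libraries 111 and 148 (6.56 and 8.44 CPM). All 4 treated libraries were below both isotype libraries. The log2 fold change was −0.33 with R (SE 0.16, adjusted p = 0.134, edgeR) and −0.40 with OF (SE 0.16, adjusted p = 0.0623, edgeR). The OF change passed the limit on the adjusted p and not that on the fold, at 1.32-fold, so neither was called, against 10.2% of all genes called with R and 11.1% with OF. SLFN5 ranked 2812th of 7599 and 2284th of 7234 among lower genes by p-value. Its OF value rested on single libraries, at −0.60 without OF replicate 2 (adjusted p = 0.038, edgeR), which made it a call, and at −0.23 without OF replicate 1. With each library's trend on GC content removed it was −0.26 (adjusted p = 0.191, edgeR).

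The antibody effect on SLFN5 differed between the lines by 1.26 with R (SE 0.22) and by 1.49 with OF (SE 0.22) on the log2 scale, as the change in U2932 minus that in TMD8. These values contain the TMD8 comparison that SLFN5 was chosen from and are given without a test. At the isotype baseline SLFN5 was 8.30-fold lower in U2932 than in TMD8 (log2 difference −3.05, SE 0.16). After R or OF the TMD8 cells still held more SLFN5 than any U2932 library, at 21.0 CPM or above against 10.4 CPM or below.

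**Figure D2:**
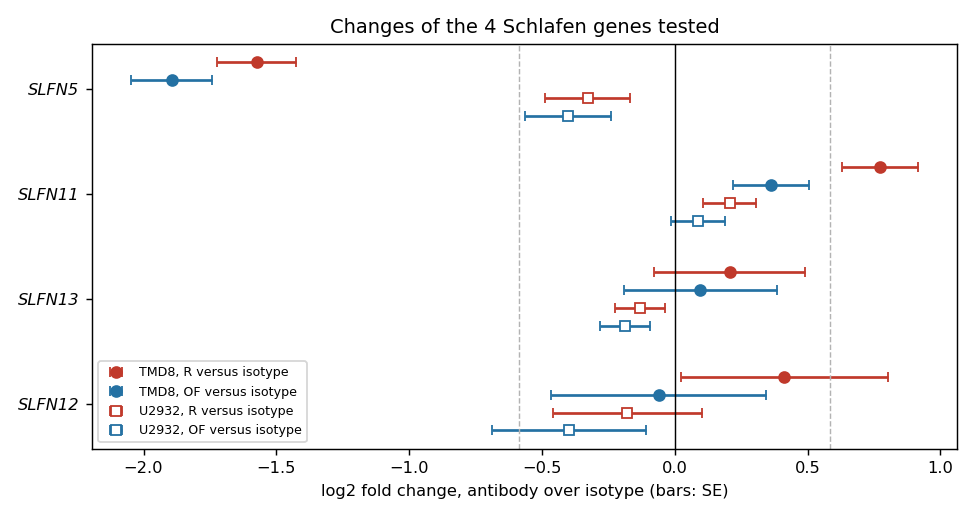
Log2 fold change of the 4 tested Schlafen genes with R (red) or OF (blue) over isotype in TMD8 (filled circles) and U2932 (open squares), with bars of 1 SE from the edgeR fit of 6 libraries per line. Dashed lines mark 1.5-fold. SLFN5 lies far to the left in TMD8 (−1.57 and −1.89) and SLFN11 to the right with R (0.77), while all U2932 values lie between −0.40 and 0.21.

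SLFN11, the member tied to replication stress, moved the opposite way in TMD8. Its isotype libraries had 58.0 and 59.9 CPM (59.0 ± 1.37), the OF libraries 74.0 and 78.7 CPM (76.4 ± 3.35) and the R libraries 99.3 and 105 CPM (102 ± 3.84). The 3 conditions did not overlap, but the share of all genes that did likewise was not counted. Against the isotype library with the same replicate number, SLFN11 was at 171% and 175% with R and at 128% and 131% with OF. The fitted log2 change was 0.77 with R (SE 0.14) and 0.36 with OF (SE 0.14), which are given without a test because they belong to the comparisons SLFN5 was chosen from. Neither was called as fitted, where 92 of all genes were called with R and 116 with OF. The R change was called with the replicate block (0.77), which called 1565 genes, and by DESeq2 (0.78), which called 702. Without the 2 libraries that stood apart it was 0.78.

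In U2932, SLFN11 was at 47.0 and 55.6 CPM with isotype, 61.0 and 58.8 CPM with R and 53.8 and 56.7 CPM with OF. The R libraries were above both isotype libraries and the OF libraries overlapped them. The log2 change was 0.21 with R (SE 0.10, adjusted p = 0.137, edgeR) and 0.09 with OF (SE 0.10, adjusted p = 0.556, edgeR). At the isotype baseline the lines differed by −0.22 (U2932 over TMD8, SE 0.12, adjusted p = 0.129, edgeR), so SLFN11 was not separated between them. The response to R, as U2932 minus TMD8, was −0.56 (SE 0.17), which missed the limit (adjusted p = 0.237, edgeR), and that to OF was −0.27 (adjusted p = 0.743, edgeR).

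SLFN13, the ribonuclease closest to SLFN11 in sequence, differed between the cell lines and was not called with either antibody. In U2932 it had 74.0 and 81.1 CPM with isotype, 74.0 and 69.5 CPM with R and 67.7 and 70.1 CPM with OF. In TMD8 it had 4.48 and 5.94 CPM with isotype, 4.95 and 7.26 CPM with R and 4.94 and 6.31 CPM with OF. The antibody conditions overlapped in TMD8, and in U2932 the OF libraries were below both isotype libraries while the R libraries were at or below the lower of them. Under isotype SLFN13 was 14.5-fold higher in U2932 (log2 difference 3.86, SE 0.20, adjusted p = 3.2e-08, edgeR). Such differences were common, with 56.1% of genes called between the lines. The changes with antibody in U2932 were −0.13 with R (SE 0.09, adjusted p = 0.33, edgeR) and −0.19 with OF (SE 0.09, adjusted p = 0.139, edgeR). In TMD8 they were 0.21 (SE 0.29) and 0.10 (SE 0.29).

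SLFN12, the partner of PDE3A, was a low gene, with 30 to 78 reads in U2932 and 14 to 49 in TMD8. In U2932 it was at 1.87 and 3.41 CPM with isotype, 2.32 and 2.41 CPM with R and 1.77 and 2.28 CPM with OF. In TMD8 it was at 1.18 and 1.71 CPM with isotype, 2.02 and 1.92 CPM with R and 0.960 and 1.85 CPM with OF. In U2932 the isotype libraries spanned or overlapped the others, and in TMD8 both R libraries were above all the others. The U2932 changes were −0.18 with R (SE 0.28, adjusted p = 0.685, edgeR) and −0.40 with OF (SE 0.29, adjusted p = 0.325, edgeR), and both turned on the isotype libraries. Without isotype replicate 1 they were −0.55 and −0.77, the latter a call (adjusted p = 0.0452, edgeR), and without isotype replicate 2 they changed sign, to 0.31 and 0.09. Between the lines SLFN12 was 1.77-fold higher in U2932 (log2 difference 0.82, SE 0.36, adjusted p = 0.066, edgeR). That call was lost without isotype replicate 2 of U2932 (0.33), without isotype replicate 1 of TMD8 (0.61) and with the correction for GC content (0.66). PDE3A itself was at 0 to 0.0698 CPM over the 12 libraries.

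SLFN12L was close to absent and did not pass the filter on low counts in either line. In TMD8 it had 8 and 21 reads with isotype (0.448 and 0.733 CPM), 5 and 10 with R (0.326 and 0.621 CPM) and 3 and 4 with OF (0.206 and 0.255 CPM). The OF libraries were below both isotype libraries, and the R libraries overlapped them. In U2932 it had 0 reads in both isotype libraries, for which 3 reads over the 2 libraries would be 0.0724 CPM, and 0 to 3 in the others. SLFN12L overlaps 6 other annotated genes, so its few reads are uncertain. Of these, AC015911.3 and TOMM20P2 passed the filter in TMD8 and are named after their values were seen. AC015911.3 was at −1.26 with R and −1.78 with OF and TOMM20P2 at −2.54 and −1.37 on the log2 scale, as descriptions. SLFN14, the family member left out of the list, had 1 read in the 12 libraries together, and the distant relative SLFNL1 had 0 to 6 per library.

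R and OF were also compared with each other. In TMD8, SLFN11 was 1.33-fold higher with R than with OF (log2 difference 0.41, SE 0.14, adjusted p = 0.733, edgeR), and SLFN5 was higher by 0.32 (SE 0.15, adjusted p = 0.733, edgeR). SLFN12 differed by 0.47 (SE 0.41) and SLFN13 by 0.11 (SE 0.29). No member passed, and of all genes 0% were called by edgeR or by DESeq2, with 582 at an unadjusted p under 0.05 by edgeR. Without the 2 libraries that stood apart, with the spread taken from the R pair alone, 131 genes were called and SLFN11 differed by 0.46 (adjusted p = 0.0255, edgeR), which is under the 1.5-fold limit. In U2932 the members differed by 0.06 to 0.22 (SLFN13 to SLFN12) with adjusted p of 0.91 to 0.959 (edgeR), where 0.00683% of genes were called at the limit of 0.30 used for that comparison. With no filter on low counts, 71 genes were called between R and OF in TMD8.

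**Figure D3:**
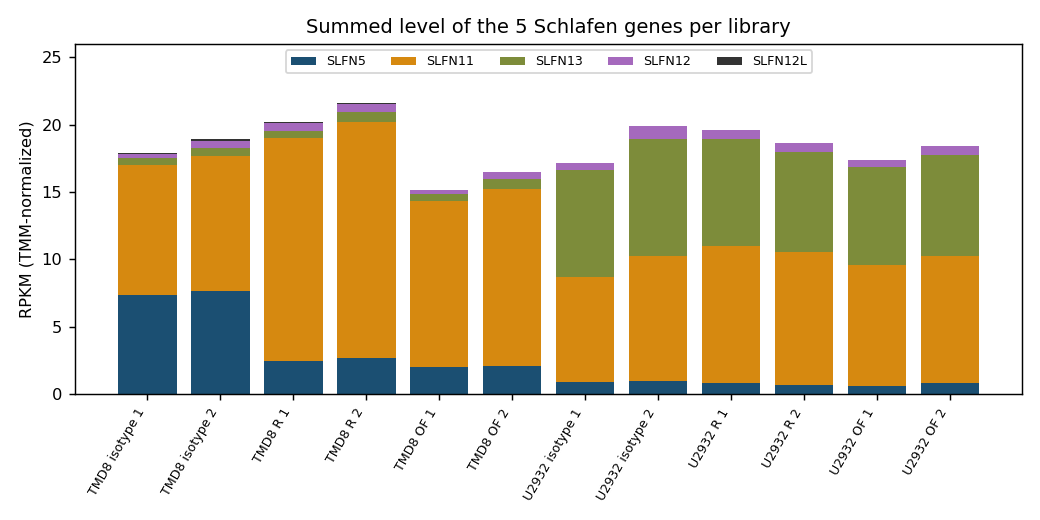
Stacked RPKM of the 5 Schlafen genes in each of the 12 libraries, with colours for genes. In TMD8 the total is 17.9 and 18.9 RPKM with isotype, 20.2 and 21.6 with R and 15.2 and 16.5 with OF. It is 17.2 to 19.9 RPKM in U2932. SLFN5 (dark blue) is large only in the 2 TMD8 isotype libraries and SLFN13 (green) only in U2932.

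The members' levels were also summed per library. The sum of the 5 RPKM was 17.9 and 18.9 in TMD8 with isotype, 20.2 and 21.6 with R and 15.2 and 16.5 with OF, and 17.2 to 19.9 in the 6 U2932 libraries. In TMD8, SLFN5 made up 40.6% of it with isotype, 12.2% with R and 12.8% with OF. SLFN11 made up 53.5%, 81.6% and 80.6%, as shares of the same totals. In U2932, SLFN11 made up 46.2% to 52.4%, SLFN13 40.2% to 44.9% and SLFN5 3.86% to 4.93%.

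The protein-coding genes beside the cluster, 5 on each side, were taken next. TAF15, an RNA-binding protein gene, was lower in U2932 by less than 1.5-fold, at −0.25 with R (adjusted p = 0.0226, edgeR) and −0.22 with OF (adjusted p = 0.0442, edgeR). NLE1 was higher in U2932 by less than 1.5-fold, at 0.26 with R (adjusted p = 0.0757, edgeR) and 0.31 with OF (adjusted p = 0.0335, edgeR). In TMD8 NLE1 was at 0.42 with R (adjusted p = 0.282, edgeR) and 0.64 with OF (adjusted p = 0.165, edgeR). TAF15 was at −0.37 (adjusted p = 0.363, edgeR) and −0.16 (adjusted p = 0.742, edgeR) there. RAD51D, NLE1, AP2B1 and RASL10B were not called in either line with either antibody. FNDC8, UNC45B, SLC35G3 and GAS2L2, with at most 5 reads per library, were not tested. SLFN11, the next tested gene after SLFN5 and 76.7 kb from its end, had the opposite sign in TMD8.

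The antisense gene AC022916.1 ends 73 bases before SLFN5 starts and was looked at for that reason. It had 5 to 30 reads per library. It was called lower in U2932 with R (−1.12, SE 0.49, adjusted p = 0.0927, edgeR) and not with OF (−0.65, SE 0.47, adjusted p = 0.315, edgeR), and was at −0.33 and −0.52 in TMD8. The use of strand in counting is not given in the sources used here, though its span does not overlap SLFN5.

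**Figure D4:**
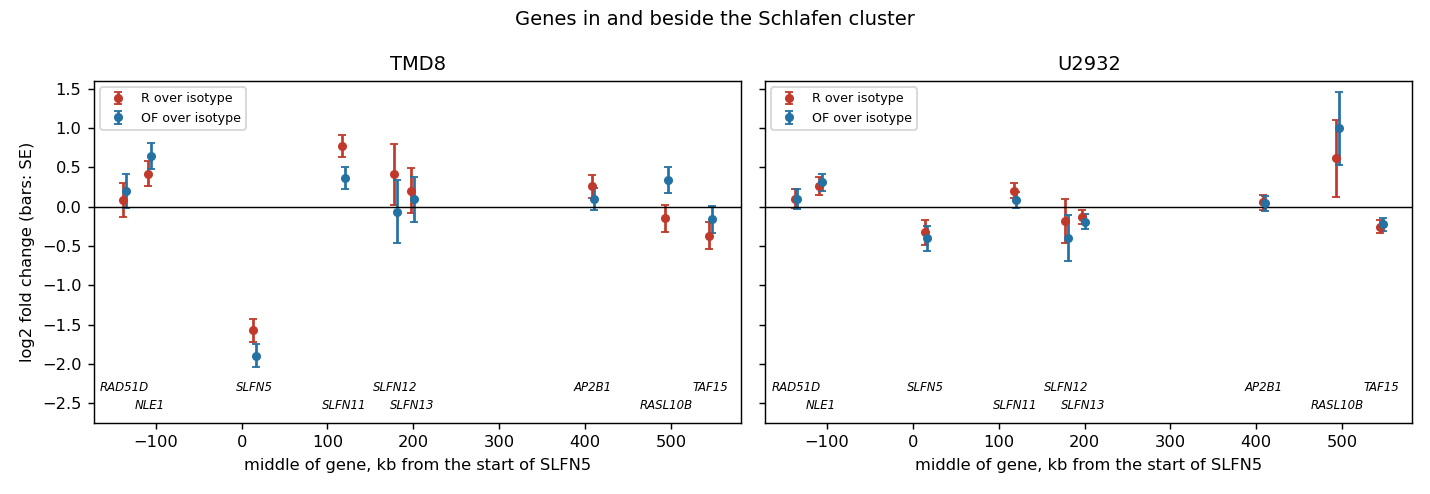
Log2 fold change with R (red) or OF (blue) over isotype in TMD8 and U2932 for 9 protein-coding genes, SLFN5, SLFN11, SLFN12, SLFN13, RAD51D, NLE1, AP2B1, TAF15 and RASL10B, placed by the middle of the gene in kb from the start of SLFN5, with bars of 1 SE. Among these genes in TMD8, SLFN5, which was chosen for its decrease there, is the lowest point (−1.57 and −1.89) and SLFN11 with R the highest (0.77).

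Schlafen genes are known interferon targets, so 42 interferon-stimulated genes were set beside them. The lines differed widely in these genes before any comparison of antibodies. Under isotype 36 of the 38 tested were called lower in U2932 and 1 higher, where 56.1% of all genes were called in either direction. The median difference was −3.09 on the log2 scale, against −0.02 over all genes. MX1, an antiviral GTPase, was at 223 to 455 CPM in TMD8 and 4.63 to 5.60 CPM in U2932, and IRF1, the exception, was 0.82 higher in U2932. SLFN5 (−3.05) lay near the median of the list in this comparison, SLFN11 (−0.22) well above it and SLFN13 (3.86) opposite to it. The TMD8 isotype libraries also entered the comparisons SLFN5 was chosen from, so nothing is read from its place. IRF9, the DNA-binding part of a factor that carries the interferon signal, is listed at 0 reads in all 12 libraries. Whether its RNA was absent or its reads were left uncounted was not tested.

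With antibody the list was mostly lower in TMD8. With R, 34 of 38 genes had a negative change with a median of −0.51, against −0.02 over all genes, and 2 were called lower and 0 higher, where 0.246% of all genes were called lower. These were IFIH1, a sensor of viral RNA (−1.13, SE 0.15), and OASL, an oligoadenylate synthetase relative (−1.47, SE 0.21). With OF, 35 of 38 were negative with a median of −0.69 against −0.01, and 7 were called lower (IFIH1, OASL, IFI44L, OAS2, XAF1, USP18 and IFIT5), where 0.344% of all genes were. The count moved with the fit. It was 0 with each antibody at a limit of 0.05 on the adjusted p. With the replicate block 17 listed genes were called with R and 20 with OF. That block called 1565 and 1387 of all genes in either direction, against 92 and 116 as fitted. SLFN5 lay below every gene of the list with either antibody and SLFN11 above every one. Since SLFN5 was chosen for its decrease in these comparisons, nothing is read from its place.

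In U2932, 0 listed genes were called lower. With R, 4 of 32 tested genes were called higher, MX2 (0.66), BST2 (0.64), IFI35 (0.59) and IFIT2 (1.00), where 5.19% of all genes were called higher. The median was 0.17 against −0.02 over all genes. With OF, 3 were called higher (BST2, IFI35 and IFIT2), where 5.9% of all genes were, and the median was 0.03 against 0.01. With library size alone as the scaling, 1 gene was called with each antibody. Of 38 listed genes, 2 were called in the R interaction (IFIH1 and OAS2) and 3 in the OF interaction (these and IFIT2), all with the higher response in U2932, against 0.321% and 0.105% of all genes. The response of IFIH1 was higher in U2932 than in TMD8 by 1.30 with R (SE 0.17) and by 1.22 with OF (SE 0.17). IFIH1 is named for its change in TMD8, which these values contain, so they are descriptions. Between R and OF, 0 listed genes were called in either line. In TMD8, where 29 of 38 were higher with R (median 0.19 against 0.01 over all genes), 3 were called without the 2 libraries that stood apart.

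**Figure D5:**
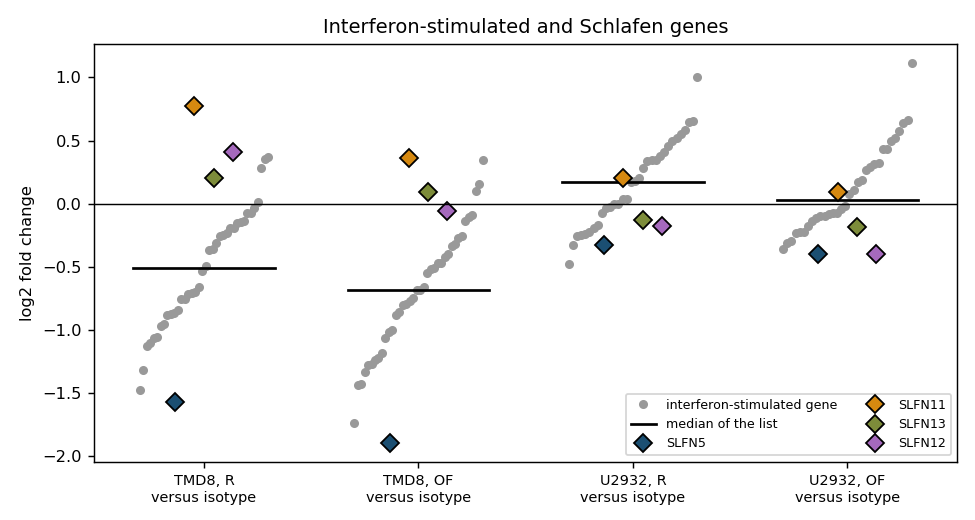
Log2 fold change over isotype of each tested interferon-stimulated gene (grey points, sorted within a comparison), their median (black line) and the 4 tested Schlafen genes (diamonds), for R and OF in TMD8 and U2932. In TMD8 the list lies mostly below 0 (medians −0.51 and −0.69), and in U2932 it lies around 0. In TMD8, SLFN5, which was chosen for its decrease there, lies below all of the list and SLFN11 above all of it.

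The genes that carry the interferon signal and the partners of Schlafen proteins were examined next. Of 6 receptors and kinases (IFNAR1, IFNAR2, IFNGR1, IFNGR2, JAK1 and TYK2), 0 were called with either antibody in either line, where 10.2% and 11.1% of all genes were called in U2932 and 0.647% and 0.815% in TMD8, although IFNAR2 passed the adjusted p in U2932 with R at less than 1.5-fold (0.45, adjusted p = 0.0221, edgeR) and JAK1 was at 0.72 with R in TMD8. Between the lines IFNAR2, a subunit of the type I interferon receptor, was lower in U2932 (log2 difference −1.67, adjusted p = 9.2e-07, edgeR) and so was IFNGR1 (−0.62, adjusted p = 0.0195, edgeR). Of 10 partners and substrates 9 were tested. In U2932, 1 was called with R and 0 with OF, and in TMD8 0 with either, beside the same shares of all genes. Nothing is read from counts over so few genes. RPA2, a subunit of the complex that brings SLFN11 to forks, was called higher in U2932 with R (0.61, SE 0.09, adjusted p = 1.5e-05, edgeR), was at 0.54 with OF and had TMD8 values of 0.93 and 0.54. CHEK1, the checkpoint kinase, was lower in U2932 with R by less than 1.5-fold (−0.39, adjusted p = 0.0042, edgeR). Between the lines 5 of the 9 were called, ATR, RPA1, RPA2 and RPA3 higher in U2932 and PDE3B lower, a share like the 56.1% of all genes.

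The genes whose levels followed SLFN5 most closely were found by Pearson's correlation of log2 CPM over the 12 libraries after the mean of each line was removed, among 12710 genes tested in both lines. The 5 most alike were CNR1 (r = 0.97), XAF1 (0.97), TRAF1 (0.96), C2orf88 (0.96) and ZBTB43 (0.95), and the 5 most opposed were HSPA5 (−0.97), PTPN9 (−0.97), HPSE (−0.97), ID3 (−0.96) and CALR (−0.96). XAF1 belongs to the interferon-stimulated list, and HSPA5 and CALR are chaperones of the endoplasmic reticulum. The lists depended on the measure. By Spearman's rho 3 of the 5 most alike and 1 of the 5 most opposed were again in the list, and over the 6 TMD8 libraries alone 0 of either. These correlations are descriptions, since libraries share antibodies and the 2 TMD8 isotype libraries hold most of the range. CNR1, the cannabinoid receptor gene, was at −1.21 with R and −1.26 with OF in TMD8 and −0.38 and −0.39 in U2932. HSPA5 was at 1.46 and 1.54 in TMD8 and 0.23 and 0.18 in U2932. Among the members, SLFN11 had r = −0.69 with SLFN5, SLFN13 −0.13 and SLFN12 0.02, so no other member was among the closest in either direction.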

How the data were processed

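RNA was measured by RNA-seq in 12 libraries. Per the paper's methods and the submitters' notes, reads were trimmed with Trim Galore 0.6.0 and aligned to GRCh38 with STAR 2.7.0e, and the authors deposited raw counts per Ensembl gene. The annotation release and the use of strand are not given in the sources used here. All columns were matched to libraries by their names, and 0 were left out. Symbols, positions and lengths came from GENCODE 29.

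Counts were analysed with edgeR 4.0.16 (R 4.3.3), with TMM normalization, filterByExpr (minimum count 10) and a quasi-likelihood fit of the 6 libraries of a cell line, with 14635 genes tested in U2932 and 14227 in TMD8. All 12 libraries (16187 genes) were fitted for differences between lines. P-values were adjusted by Benjamini-Hochberg over all genes tested, and the limits were an adjusted p of 0.10 (0.30 for R with OF in U2932) and 1.5-fold. The study's own tool was DESeq2 1.26.0, and DESeq2 1.42.0 was an alternative here, with other scalings, filters, limits, sets of libraries, a GC content correction and a replicate block. Log2 CPM had a prior count of 2. Steps were tested on simulated data.

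Members and lists were chosen with earlier results of these data known. Genes named are the members, SLFN14 and SLFNL1, 5 protein-coding neighbours on each side, listed genes with the smallest p-values or called, the 5 genes most like and most opposed to SLFN5 and the gene next to it by p-value; others are marked as chosen after their values were seen. Of the neighbours, 1 is not reported here. The labels say that each line was divided into 2 cultures before treatment but do not tie the replicate number to a culture, so that same-numbered libraries share one is an assumption. Deviations from condition means correlated between same-numbered libraries at 0.22 to 0.69 in TMD8 and at -0.05 to 0.10 in U2932. Intervals from the depth of 15440226 to 27110612 counts cover counting error only.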

Additional observations from a re-analysis of the deposited data

Results flagged for a closer look

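The response of SLFN5 to the antibodies differed between the cell lines. The log2 change over isotype in U2932 minus that in TMD8 was 1.26 with R (SE 0.22) and 1.49 with OF (SE 0.22), from the interaction terms of the 12-library fit, in which 0.321% and 0.105% of all genes were called. SLFN5 was lower than the isotype mean in both libraries with each antibody in TMD8, at -1.93 to -1.48 on the log2 scale, and in both in U2932, at -0.57 to -0.18. It is listed because the interaction passed the limits, but SLFN5 was chosen from the TMD8 comparison, so no p-value is given.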

How the results depend on the processing

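The direction of SLFN5 against isotype held in all 18 alternatives in U2932 (-0.46 to -0.20 with R, -0.60 to -0.23 with OF) and in all 19 in TMD8 (-1.71 to -1.498 with R, -1.96 to -1.82 with OF). That of SLFN11 with R held in both lines (0.08 to 0.33 in U2932, 0.64 to 0.81 in TMD8). Calls depended more on the fit. In TMD8 with R, 2 members were called (SLFN5 and SLFN11) instead of 1 by DESeq2, with at least 10 counts in every library, with no filter, with all 12 libraries in one fit, with the replicate block, with the GC content correction, with both, and without the 2 libraries that stood apart, an alternative chosen after seeing the data. At a limit of 0.05 on the adjusted p, 0 members were called in TMD8 with R or OF or in the R interaction, and 0 with OF with only the 4 libraries compared. Without each library in turn the number of members called was 0 to 1 in TMD8 with R and with OF, 0 to 1 in U2932 with OF and 0 to 1 in either interaction. In TMD8 the call was lost with R when R replicate 1 or 2 was left out, and with OF when R or OF replicate 1 or 2 was, and 0 genes of any kind were called in those fits. The R interaction lost it without any 1 of the 6 U2932 libraries or of the 2 TMD8 R libraries, and the OF interaction without any 1 of the U2932 OF or isotype libraries or TMD8 OF replicate 1. In U2932 with OF, 1 member was called without OF replicate 2 (SLFN5) and without isotype replicate 1 (SLFN12). In U2932 with OF, 1 member was called with no limit on the fold change (SLFN5, -0.40). The difference in SLFN5 response was 1.43 with R under the GC content correction, alone or with the replicate block, and 1.11 to 1.38 with R and 1.30 to 1.66 with OF without each library in turn. The cause of these shifts was not tested.

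The number of all genes called in TMD8 was 92 with R and 116 with OF, and 702 and 590 by DESeq2, 171 and 152 with at least 10 counts in every library, 66 and 25 by library size only, 1093 and 908 with no filter, 1359 and 1170 with all 12 libraries in one fit, 26 and 0 with only the 4 libraries compared, 458 and 439 with the GC content correction, 0 and 0 at 0.05, and 1932 and 1783 without the 2 libraries that stood apart. The replicate block (1565 and 1387) called SLFN11 with R in TMD8 and changed no other member call against isotype; with it, SLFN5 in U2932 was at -0.32 with R (adjusted p = 0.112, edgeR) and -0.40 with OF (adjusted p = 0.0438, edgeR). Depth limits SLFN12 and SLFN12L most, with at most 78 and 21 reads per library.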
